A study of Mus musculus with 2 samples.

Results

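Transcript models classed as retained intron in protein-coding genes were examined in mouse leukemia stem cells. They were the rows of the transcript tables whose identifier, without its version, carries that class in the GENCODE M21 annotation and belongs to a protein-coding gene. There were 14071 such models among 76948 transcripts of protein-coding genes and 129984 rows in all, and they lay in 6190 genes. The class name fits only some of them. Among 13643 models of the same length in the tables and in M21, 4061 (29.8%) held a whole intron of a coding transcript. Another 9530 spanned no intron from end to end but held bases outside the exons of coding transcripts. Such bases can lie in an intron or beyond the ends of the coding transcripts.

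The labels describe cells infected with Friend virus, an erythroleukemia retrovirus, and positive for CD34, CD133, Kit and Sca1. They came from pooled male and female adult mice of 10 to 12 weeks, from a strain with the Fv2 sensitive allele, Fv2 being the locus of the receptor gene Mst1r. The RNA was described as polyA mRNA and sequenced with paired ends in 2 libraries, biological replicates 1 and 2 of 1 group, so nothing could be compared between conditions. Different biosamples and a shared donor record were given for the libraries, so differences between them measure only the spread between these samples, part of which may be technical.

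An intron is retained when the spliceosome leaves it in an otherwise mature RNA. Such RNAs are often held in the nucleus, or, where the intron brings a premature stop codon into the reading frame, are destroyed in the cytoplasm by nonsense-mediated decay. During red cell maturation, retention is known to increase in genes of RNA processing and iron handling, and splicing factors use it to limit their own production.

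The sequences below show what the models with the highest shares hold, with intron bases in capitals and exon bases in lower case, 5′ to 3′, from GENCODE M21 on GRCm38 (mm10). Most of these models ran across the start of an intron and stopped inside it. The range given is the stretch of intron inside each model.
Eif1ax-202, intron 2 of 6, chrX:159376465-159376558, plus strand: gatgggcaagGTAAGAGGCTGAGAAGCTGG
Tmem30a-203, intron 3 of 6, chr9:79776854-79777223, minus strand: tgctttgcttGTAAGTAATGATGAGATACA
Tmem30a-204, intron 6 of 6, chr9:79772552-79774092, minus strand: atcacatacaGTATCCTTTTATTTTTTGCT
Atp13a3-203, intron 2 of 33, chr16:30385893-30387606, minus strand: tacataagagGTATGAATCACTTACATAAT
Mrpl39-202, intron 2 of 9, chr16:84734168-84734406, minus strand: tgtgccatgcGTAAGCAGCAGAACAATGTT
Mtx2-203, intron 6 of 9, chr2:74868413-74868814, plus strand: gactgcagagGTATAAGAGGATAAGGCTTG
Cd320-203, intron 2 of 4, chr17:33846142-33846318, plus strand: gaagactgtaGTAAGTGGCCATTCCTGGAG
In each of these 7 models the intron opens with GT, and the model ends before the intron does: Eif1ax-202 held 94 of 994 bases and Mtx2-203 held 402 of 470. They were chosen after their shares had been seen.

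Whole introns were held by models of Taf10 and Mst1r, and both bring in a stop codon in frame. Their introns are printed in lower case with the first stop codon in the reading frame of the upstream exon in capitals.
Taf10-201, intron 3 of 4, chr7:105743341-105743427, minus strand: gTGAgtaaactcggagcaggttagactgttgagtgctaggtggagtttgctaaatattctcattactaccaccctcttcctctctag
Mst1r-202, intron 14 of 18, chr9:107916368-107916551, plus strand: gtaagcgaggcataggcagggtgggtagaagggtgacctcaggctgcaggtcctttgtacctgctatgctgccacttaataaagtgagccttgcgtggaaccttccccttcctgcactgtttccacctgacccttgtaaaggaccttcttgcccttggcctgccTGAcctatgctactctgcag
The stop codon began at base 2 of the 87 bases in Taf10 and at base 165 of the 184 bases in Mst1r. Taf10-201 is 667 bases long in the tables and 678 in M21, and where the models differ was not examined.

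The models of the alpha globins did the reverse and began inside an intron. Hba-a1-202 (chr11:32283811-32284438, plus strand) held the last 113 of the 122 bases of intron 1 and then the spliced exons 2 and 3. The intron part, at chr11:32283811-32283923, is printed in lower case.
Hba-a1-202: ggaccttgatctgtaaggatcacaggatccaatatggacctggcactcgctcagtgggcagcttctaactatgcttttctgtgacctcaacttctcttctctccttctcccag
The intron part of Hba-a2-202, at chr11:32296628-32296740, differed from it at 0 of 113 bases, and the whole models differed at 1 of 494 bases. Reads of these genes can therefore hardly be told apart, and the split between them is uncertain.

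Replicate 1 had 23575315 and replicate 2 had 22541765 expected counts in all, of which 1960469 and 2431299 were given to the retained-intron models. Expected counts are estimated numbers of fragments, shared out among the transcripts that each fragment matches. Of the 4 genes of the sort markers, 2 reached 1 TPM (a transcript level per length, relative to all rows of the table) in both libraries. Cd34 had 1.80 and 0.27 TPM and Prom1, the gene of CD133, 0.06 and 0 TPM in replicates 1 and 2, so the RNA carried little of these labelled markers. All 6 erythroid genes examined reached 1 TPM in both, with 89760 and 153837 TPM in sum. So did 5 of 6 macrophage genes (917 and 1247 TPM in sum), 4 of 4 B cell genes (688 and 280 TPM), 3 of 4 T cell genes (77.3 and 74.9 TPM), 4 of 4 neutrophil genes (24.3 and 19.2 TPM) and 2 of 3 endothelial genes (116 and 114 TPM). The defining liver genes Alb and Ttr were at 0 in both. Fewer cells of a type and less RNA per cell cannot be told apart in such bulk samples, and the part of these other cells in the shares below was not tested.

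Retained-intron models took a large part of the TPM of protein-coding genes, and globin models made up most of it. They held 19.8% of that TPM in replicate 1 and 29.8% in replicate 2 (24.8 ± 7.08%, SD, n = 2). Transcripts classed as nonsense-mediated decay held 2.75% and 3.06%, other processed transcripts 7.25% and 7.76%, and coding transcripts 70.2% and 59.3%. Of expected counts, which are not divided by length, the retained-intron models held 9.16% and 13.0% (11.1 ± 2.75%, SD, n = 2). Their median length was 827 bases, against 1870.5 for coding transcripts. The 3 globin models alone made up 51.6% and 71.3% of the retained-intron TPM, and without the globin genes the retained-intron models held 10.9% and 11.5%.

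**Figure D1:**
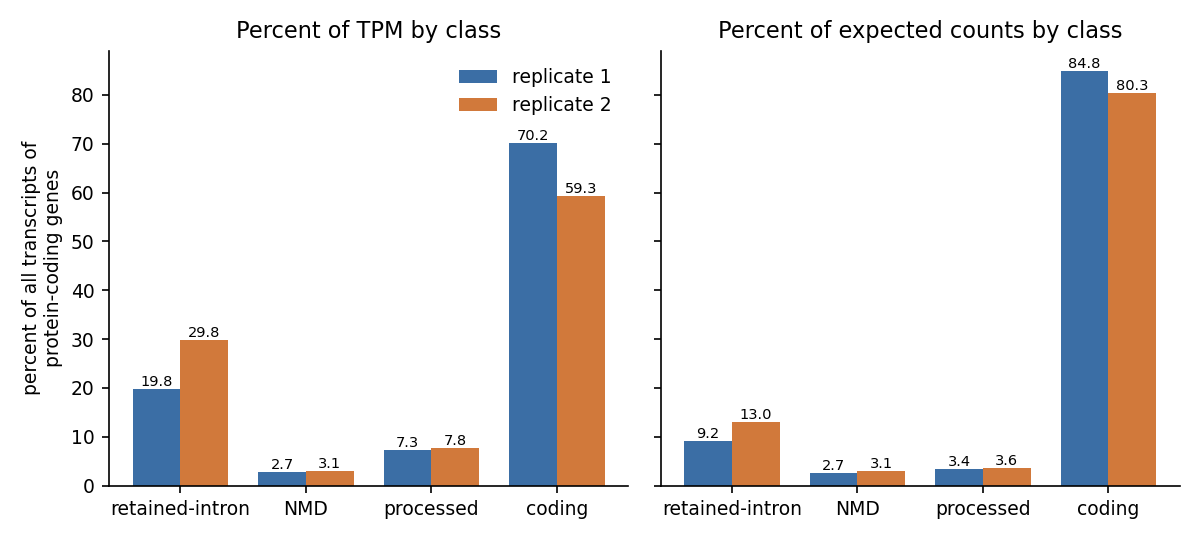
Percent of the TPM (left) and of the expected counts (right) of all transcripts of protein-coding genes held by 4 transcript classes in each library; NMD is nonsense-mediated decay. The retained-intron bars stand at 19.8% and 29.8% of TPM and at 9.16% and 13.0% of counts.

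Many models were scarce, as in the other classes. Of the 14071, 1817 (12.9%) had 1 TPM or more in both libraries, against 14.4% of nonsense-mediated-decay, 10.2% of processed and 21.1% of coding transcripts. A count of 0 in both libraries was given to 6413 retained-intron models (45.6%), against 51.8% of nonsense-mediated-decay, 62.4% of processed and 46.6% of coding transcripts. At the other end, 88 models had 100 TPM or more in both. Of these, 24 held a whole intron and 63 held only other bases outside the exons of coding transcripts.

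The most abundant models belonged to globins, ribosomal proteins and a few housekeeping genes. Hba-a1-202, of the alpha chain of adult hemoglobin, had 50851 TPM in replicate 1 and 133151 TPM in replicate 2. Hba-a2-202, of the second alpha globin copy, had 7910 and 33869 TPM. Hbb-bs-202, of an adult beta globin, had 34691 and 18232 TPM. The alpha models were thus higher in replicate 2 and the beta model in replicate 1. Hba-a1-202 carried 99.6% and 99.8% of its gene's TPM and Hbb-bs-202 99.9% and 98.0%, but Hba-a2-202 carried 35.1% and 48.3%. The authors' posterior SD of the Hba-a2-202 count was 2728 of 56499 counts in replicate 1 and 77376 of 237716 in replicate 2. The Hbb-bs-202 model is 549 bases long in the tables and 344 in M21, so which intron bases it held was not examined.

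Among the other abundant models, Rpl27a-204 had 2803 and 3794 TPM, Rplp2-206 had 2020 and 3717 TPM and Rpl13-204 had 1176 and 1791 TPM, all of ribosomal protein genes. Ndufab1-208, of the mitochondrial acyl carrier protein, had 676 and 1264 TPM. These 4 models held no whole intron, and they carried between 58.4% and 95.9% of their gene's TPM in each library. Rpl27a-204 had 0 bases outside the exons of the other transcripts of its gene in the tables, so no base is its alone. Whether it has a splice junction of its own was not examined.

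**Figure D2:**
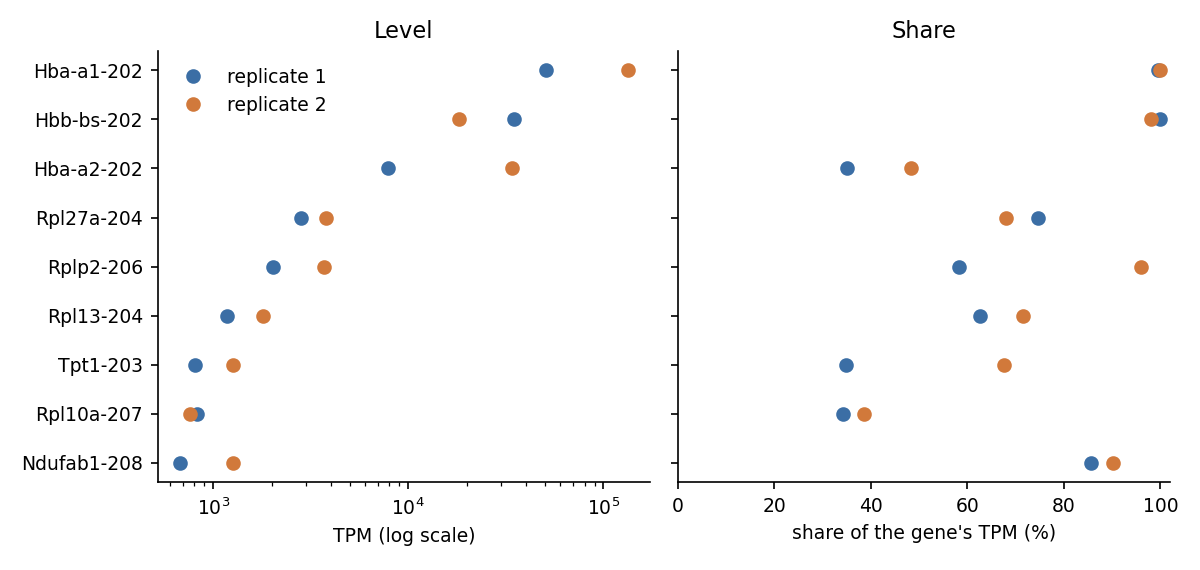
TPM on a log axis (left) and share of the gene's TPM in percent (right) of 9 of the most abundant retained-intron models, 1 point per library. The 3 globin models lie between 7910 and 133151 TPM and the other 6 between 676 and 3794.

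In structure, the models were mostly short fragments that met an intron at an end. Measured on the coding transcript with the longest reading frame in the gene, 5820 of the 13643 models began inside an intron, 7090 ended inside one, 1651 did both and 2376 did neither. The median model held 323 bases outside the exons of coding transcripts and 257 bases outside the exons of every other transcript of its gene in the tables. For 2261 models the latter figure was under 50 bases, and for 1475 it was 0. Among models holding whole introns, 2797 held 1 intron and 1264 held 2 or more, up to 19.

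The wholly held introns were short. The 5348 distinct introns came from any coding transcript, and 4531 of them lay in the longest-coding one. The 31524 other introns of the longest-coding transcripts in the same genes had a median length of 835 bases (quartiles 251 and 2138). For the 5348 held introns the median was 254 bases (quartiles 115 and 649.5). They opened with GT and closed with AG in 5242 cases (98.0%), with GC and AG in 66 and with AT and AC, ends typical of a class of introns removed by the minor spliceosome, in 7. Of those in the longest-coding transcript, 6.51% were its first intron and 6.36% its last, and the same percents over all introns were not computed. Of 4494 lying between coding exons, 4006 (89.1%) carried a stop codon in frame, at a median of 36 bases into the intron. Among those without a stop, 110 had a length divisible by 3 and so kept the frame, and 378 did not.

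Models that carried much of their gene's TPM differed in structure from those that carried little. In genes with 100 or more expected counts in each library, 299 models of unchanged length had a share of 50% or more in both libraries and 6168 had under 1% in at least 1. Of the first, 57.2% ended and 27.1% began inside an intron; of the second, 50.1% ended and 47.1% began there. The midpoint of the model lay at a median of 36.6% of the gene's length from its start in the high group and 54.9% in the low group. A whole intron was held by 23.1% of the high group and 29.7% of the low group, with 51.8% between shares of 1% and 10%. High-share models had fewer bases of their own, with a median of 142 against 245. Wholly held introns of models at 10% or more in both libraries were shorter than those of models under 1% (median 184 against 241 bases) and richer in G and C (57.1% against 50.6%). These are descriptions over annotated models that overlap within a gene, and the part of read coverage along the transcript in them was not tested.

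**Figure D3:**
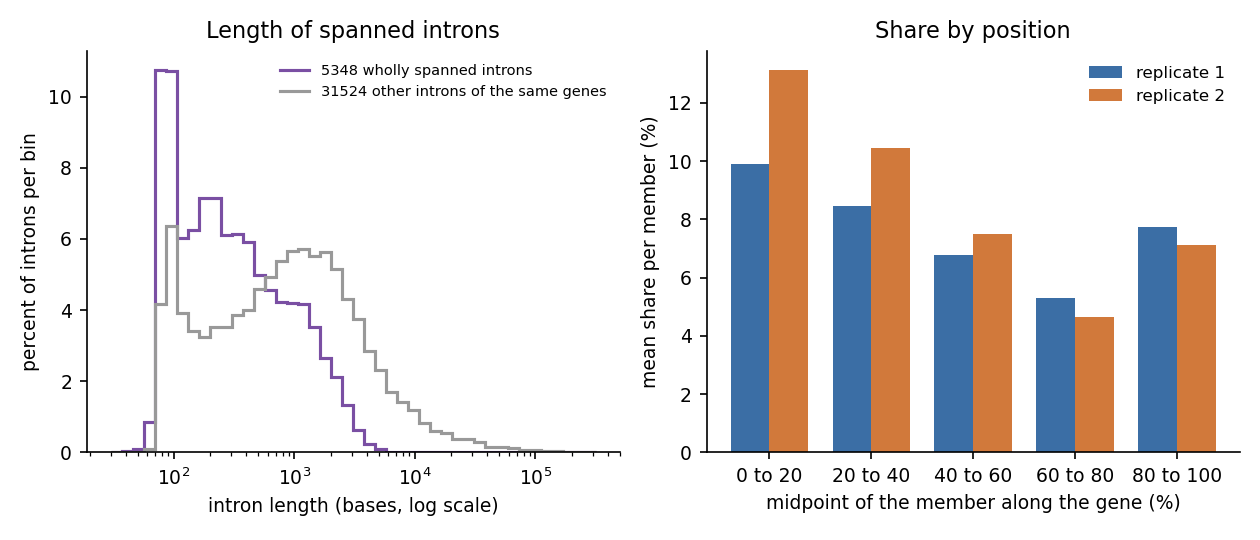
Left, length of 5348 introns of any coding transcript held whole and of 31524 other introns of the longest-coding transcripts in the same genes, as percent of introns per bin on a log axis. Right, mean share of the gene's TPM per model by the position of its midpoint along the gene, falling from 9.91% and 13.1% (replicates 1 and 2) for midpoints at 0 to 20% to 5.32% and 4.67% at 60 to 80%, with 7.75% and 7.11% at 80 to 100%.

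The summed share of the retained-intron models was then taken for each of 3328 genes with 100 or more expected counts in each library. Most genes had little and some had nearly all of their TPM in these models. The median share was 3.88% in replicate 1 and 3.23% in replicate 2, and the median of the mean share was 5.21%. In 981 genes the share was under 1% in both libraries, in 1027 it was 10% or more in both, in 416 50% or more and in 74 90% or more. A retained-intron model was the most abundant transcript of its gene in both libraries in 443 genes, and in 393 of these it was the same model. On expected counts in place of TPM, 272 genes had 50% or more in both.

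The 12 genes with the highest lowest share had varied functions, and the globins Hba-a1 and Hbb-bs were among them. Eif1ax, a translation initiation factor, had 99.85% of its TPM in Eif1ax-202 in replicate 1 and 99.97% in replicate 2, from 3311 and 1620 counts. Taf10, a subunit of the general transcription factor TFIID, had 99.2% and 99.7%, with Taf10-201 at 213 and 315 TPM. In both genes the libraries gave the same leading model.

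Mrpl39 and Mrps5, subunits of the mitochondrial ribosome, had 97.8% and 99.6%, and 97.5% and 98.7%. Mrps5 was led by Mrps5-206 in replicate 1 and by Mrps5-202 in replicate 2. Mtx2, of mitochondrial protein import, had 97.2% and 98.1%, and Hars2, the mitochondrial histidyl-tRNA synthetase, 98.4% and 99.1%. Cd320, the receptor for vitamin B12 bound to its carrier, had 96.9% and 99.0%, from 255 and 212 counts of Cd320-203. Atp13a3, a membrane transport ATPase, had 97.7% and 99.7%. Each of these genes also has a coding transcript in the tables, as their selection required.

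Tmem30a, a subunit of lipid flippases, kept its share but not its model. Tmem30a-203 had 335 TPM in replicate 1 and 0 in replicate 2, while Tmem30a-204 had 0.15 and 126 TPM. The summed share was 99.4% and 99.7%. Such a change of leading retained-intron model between libraries occurred in 50 genes.

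At the 100-count limit, Kif16b (143 and 100 counts) had a share of 0 in both libraries and Mad2l1 (181 and 100 counts) 40.2% and 91.1%. Just below it, Pla2g4b (240 and 99.0 counts) had 92.2% and 100%, and Brca1 (391 and 99 counts) 86.3% and 0%.

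Shares differed little between the libraries in most genes and greatly in some. The difference was under 5 points in 1919 genes, from 5 to 25 in 928 and 25 points or more in 481, of which 291 were higher in replicate 2 and 190 in replicate 1. With shares of expected counts in place of TPM, 258 were higher in replicate 2 and 96 in replicate 1. Across the 3328 genes, which are not independent replicates and share 2 libraries, Pearson's r of the shares was 0.81. By single model, 344 of 8577 (4.01%) had a share at least 25 points higher in replicate 2, against a background of 5.34% over all 35041 transcripts of genes at that depth with more than 1 transcript, and 232 (2.70%) in replicate 1, against 5.19%. Per gene, 14.5% of genes differed by 25 points in the summed retained-intron share, against 11.6% for nonsense-mediated-decay, 10.4% for processed and 19.6% for coding transcripts in the genes that have them. Differences were more frequent in genes with few counts: 17.0% of genes whose lower count was 100 to 300, and 10.7% of those with 3000 or more.

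**Figure D4:**
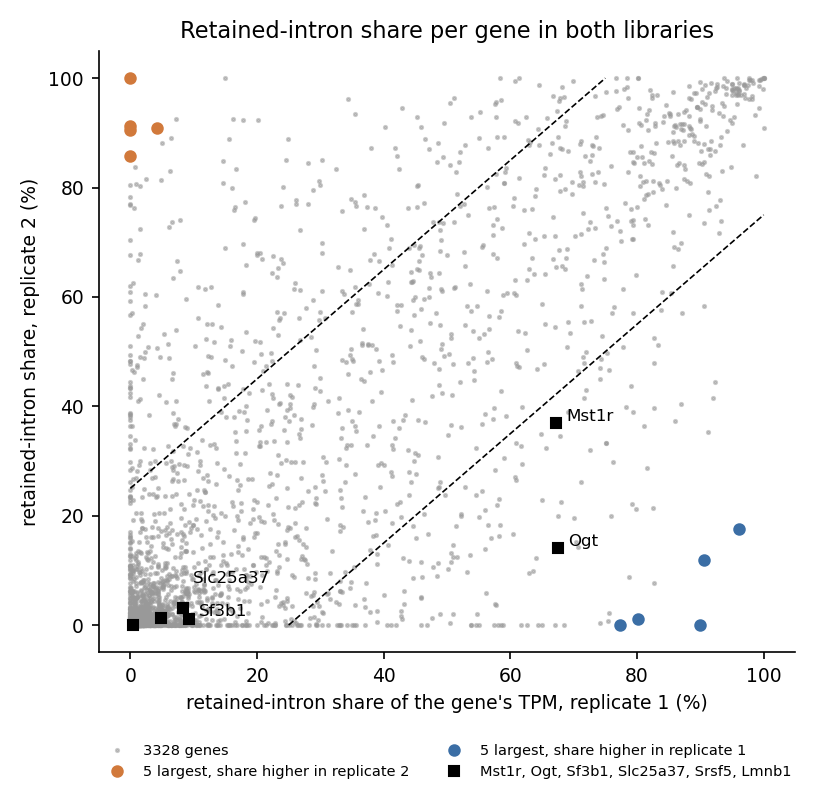
Retained-intron share of each gene's TPM in replicate 1 (x axis) and replicate 2 (y axis), 1 grey point per gene for 3328 genes; dashed lines mark a difference of 25 points. Coloured points are the 5 genes with the largest difference in each direction and black squares are genes named in the text, with Mst1r at 67.2% and 36.9%.

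In the genes with the largest differences, a coding transcript led in one library and a retained-intron model in the other, except in 2610507B11Rik, where a processed transcript led in replicate 2. Inpp5d encodes a lipid phosphatase that restrains signalling in blood cells, and its share was 0% in replicate 1 and 91.3% in replicate 2. Inpp5d-203 had 0 and 1248 counts, and the coding Inpp5d-201 had 2355 and 55.6. The upper bound of the authors' interval for Inpp5d-203 in replicate 1 was 2.89 TPM, against 281 TPM estimated in replicate 2. Inpp5d-203 is 364 bases long, and 24 of these lie outside the other transcripts.

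Other genes higher in replicate 2 were Dcaf7, a substrate adaptor of ubiquitin ligases (0% and 90.4%), Ncaph, a condensin subunit (4.16% and 90.9%), Diaph2, an actin-nucleating formin (0% and 85.9%), and Osgin1 (0% and 100%). Diaph2 had only 113 and 121 gene counts and Osgin1 157 and 162. The authors' posterior shares were 33.8% and 81.0% for Diaph2 and 8.88% and 76.7% for Osgin1. The reverse was seen in Gapdh, a glycolytic enzyme, with 96.0% in replicate 1 and 17.5% in replicate 2. Gapdh-206 had 42160 and 455 counts, the whole gene 47014 and 7300, and the model has 0 bases outside its gene's other transcripts. Ptpn12, a tyrosine phosphatase, had 89.97% and 0%, Commd9 77.3% and 0%, Tlcd1 90.6% and 12.0%, and 2610507B11Rik 80.2% and 1.08%. A count of 0 allows up to 3 counts, which covers counting error only.

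The levels of single models were compared between the libraries as well. A model was called higher in one where the 95% exact binomial interval of its ratio, after TMM scaling, lay wholly beyond 2-fold; this compares the libraries and not conditions. Of 3644 models with 20 or more counts over both, 844 (23.2%) were higher in replicate 2, against 17.5% of all 25328 transcripts tested. In replicate 1, 904 (24.8%) were higher, against 25.4%. The percent higher in replicate 2 was 23.4% for nonsense-mediated-decay, 23.7% for processed and 15.2% for coding transcripts. It was thus not particular to retained-intron models. The median log2 ratio (replicate 2 over 1) was 0.04 for these models and -0.15 for all transcripts, so the retained-intron median lay 0.19 above the overall one. The median was -0.08 for nonsense-mediated-decay, 0.21 for processed and -0.22 for coding transcripts. The sign of the retained-intron median depended on the settings. It was -0.31 with scaling by total counts, against -0.50 for all transcripts, and -0.39 with ratios centred on TPM, against -0.57. In both settings the retained-intron median still lay 0.18 above the overall one. With a minimum of 1 count it was -0.56, against -0.35 for all transcripts, and so lay below. Of the calls, 48.3% were higher in replicate 2 with TMM scaling and 36.5% with ratios centred on TPM.

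Genes of splicing regulators were examined as groups, chosen with earlier results of these data known. SR proteins bind exons and recruit the spliceosome. Of 13, 8 had a retained-intron model, all 8 with 100 or more counts. Their median share was 39.6%, against 5.21% over all 3328 genes. Of the 8, 5 had 10% or more in both libraries, against 1027 (30.9%) of all genes. At 50% or more in both there was 1 of 8, against 416 (12.5%) of all genes. Under 1% in both were 2 of 8, against 981 of 3328. Srsf6 had 68.7% in replicate 1 and 65.2% in replicate 2, with Srsf6-204, which holds 3 whole introns, at 75.4 and 62.3 TPM. Tra2b had 48.7% and 64.4%. Srsf3 and Srsf11 differed widely between libraries, with 16.4% and 75.8% for Srsf3 (1498 and 121 gene counts) and 70.1% and 19.5% for Srsf11. Srsf5 had 4.90% and 1.38%, and Srsf7 had no retained-intron row.

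The splicing kinases phosphorylate SR proteins. Of 9, 6 had a model and 3 reached 100 counts. Clk2 had 75.8% and 72.9%, led in both libraries by Clk2-207, which holds 3 whole introns, at 12.3 and 26.2 TPM. Srpk1 had 71.5% and 49.0%, and Dyrk1a 0% and 0.30%. Clk1 and Clk4, known for retained introns in other cells, had too few counts for a share to be read: 90 and 32 for Clk1, and 64 and 11 for Clk4.

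The hnRNP proteins bind RNA broadly and often repress splicing. Of 21, 11 had a model and passed 100 counts, with a median share of 10.0%; 3 of 11 had 10% or more in both libraries, near the 30.9% of all genes. Ptbp1 had 74.1% and 87.3%, but Ptbp1-205 led in replicate 1 with 426 TPM (2.59 in replicate 2) and Ptbp1-204 in replicate 2 with 434 TPM (244 in replicate 1). Hnrnpm had 23.7% and 56.1%, Hnrnpl 38.3% and 16.2%, and Hnrnpa3 0.39% and 62.6%, so each of these differed widely between libraries.

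Components of the splicing machinery itself had little. Of 18 genes of the U1 and U2 particles, which recognise the start of an intron and its branch point, 7 had a model and 100 counts, with a median of 0.13%; 0 of 7 reached 10% in both. Sf3b1, the branch-site factor often mutated in myeloid disease, had 9.20% and 1.19%, with Sf3b1-203 at 79.4 and 0 counts. Sf3a1 had 0.60% and 1.28%, and Snrnp70 had no retained-intron row. The 4 minor spliceosome genes measured had a median of 0.14%, led by Zrsr2 with 3.55% and 0%.

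RNA decay genes were mixed. The 5 measured factors of nonsense-mediated decay had a median of 4.30%, with Smg9 at 15.7% and 51.1% and Smg5 at 9.60% and 9.15%. Among 5 genes of nuclear decay and retention the median was 18.1%. Tpr, a protein of the nuclear pore basket, had 92.9% and 93.7%, led by Tpr-204 in replicate 1 and by Tpr-206 in replicate 2. Exosc10, a nuclease of the nuclear exosome, had 19.7% and 16.9%, and Zfc3h1 31.5% and 4.70%. The Zfc3h1 shares rest on few counts, since its leading retained-intron model, the 424-base Zfc3h1-203, had 19 and 3 of 1016 and 1467 gene counts.

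In the heme and iron list, 9 genes were measured, with a median of 16.2%, against 5.21% over all genes; 3 of 9 had 10% or more in both libraries, near the 30.9% of all genes, and 0 had under 1% in both. Urod, an enzyme of heme synthesis, had 77.4% and 70.2%, led by Urod-209 in replicate 1 (228 and 0 counts) and by Urod-205 in replicate 2 (49.1 and 57.5 counts). Alas1, the housekeeping enzyme of the first step, had 62.7% and 50.4%, with posterior shares of 49.3% and 44.1%. Its leading model Alas1-203 had 90 and 44.5 of 283 and 153 gene counts. The iron transporter Slc11a2 had 20.4% and 32.8%. The Slc11a2 shares rest on few counts, since the 709-base Slc11a2-206 had 24.7 and 31.5 of 636 and 423 gene counts. Slc25a37, the mitochondrial iron importer of erythroid cells, had 8.27% and 3.15%, with Slc25a37-203, which holds the whole of intron 2, at 15.7 and 4.07 TPM. Its relative Slc25a28 had no retained-intron row.

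The erythroid regulators measured had a median of 1.09% over 5 genes, with Myb at 3.66% and 7.61%, Ldb1 at 1.39% and 0.78% and Bcl11a at 0.77% and 0.22%. Mst1r had more, at 67.2% and 36.9% of the gene's TPM. Of this, Mst1r-203 gave 14.1% and 0%, from 13.0 and 0 counts. The rest lay in Mst1r-202, with 108 and 36.9 of 777 and 665 gene counts. Mst1r-202 spans chr9:107916224-107916904 and is 600 bases long, 247 of them outside the other transcripts. Mst1r-204, classed as nonsense-mediated decay, led in replicate 2 by the deposited share, with 40.7% against 36.9% for Mst1r-202. By the authors' posterior share Mst1r-202 was the higher there, with 36.7% against 35.1%. Mst1r-204 is 4717 bases long and had 446 and 405 counts, with posterior SDs of 142 and 203. Since TPM is a level per length, the retained-intron models held a much smaller part of the gene's counts than of its TPM.

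In the nuclear envelope list, 5 genes were measured, with a median of 28.0%. Sun2 and Sun1, which tie the nucleus to the cytoskeleton, had 22.5% and 67.5%, and 10.7% and 61.8%. Lbr, the lamin B receptor, had 20.3% and 35.7%, and Lmnb1, encoding lamin B1, 0.43% and 0%.

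Ogt belonged to none of the lists. It encodes an enzyme that adds a sugar to nuclear proteins and is known for a detained intron. Its share was 67.5% and 14.1%, from 512 and 157 gene counts. Ogt-207, which led in replicate 1, held no whole intron and had 0 bases outside the gene's other transcripts. Ogt-204 held 1 whole intron, of 107 bases, which is not in the longest-coding transcript. Whether these models hold the known detained intron was not examined.

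Of 4 genes in the p53 list, Mdm4, an inhibitor of p53, had 84.8% and 81.2%, with Mdm4-204 at 49.75 and 38.02 TPM, and Mdm2, its partner, 18.8% and 42.4%. Bbc3 had 0.17% and 0.72% and Apaf1 0% in both. Of 86 ribosomal protein genes, 44 had a model and 43 of these reached 100 counts, with a median share of 3.48%, against 5.21% over all genes. Of the 43, 8 had 50% or more in both libraries, against 416 (12.5%) of all 3328 genes. Under 1% in both were 16 of 43, against 981 of 3328. Rps19, mutated in Diamond-Blackfan anemia, had 85.9% and 91.5%, Rpl12 90.5% and 84.7%, and Rps18 87.6% and 83.4%. Rps18 was led by Rps18-210 in replicate 1 (64.6% and 14.3%) and by Rps18-207 in replicate 2 (13.5% and 64.2%).

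**Figure D5:**
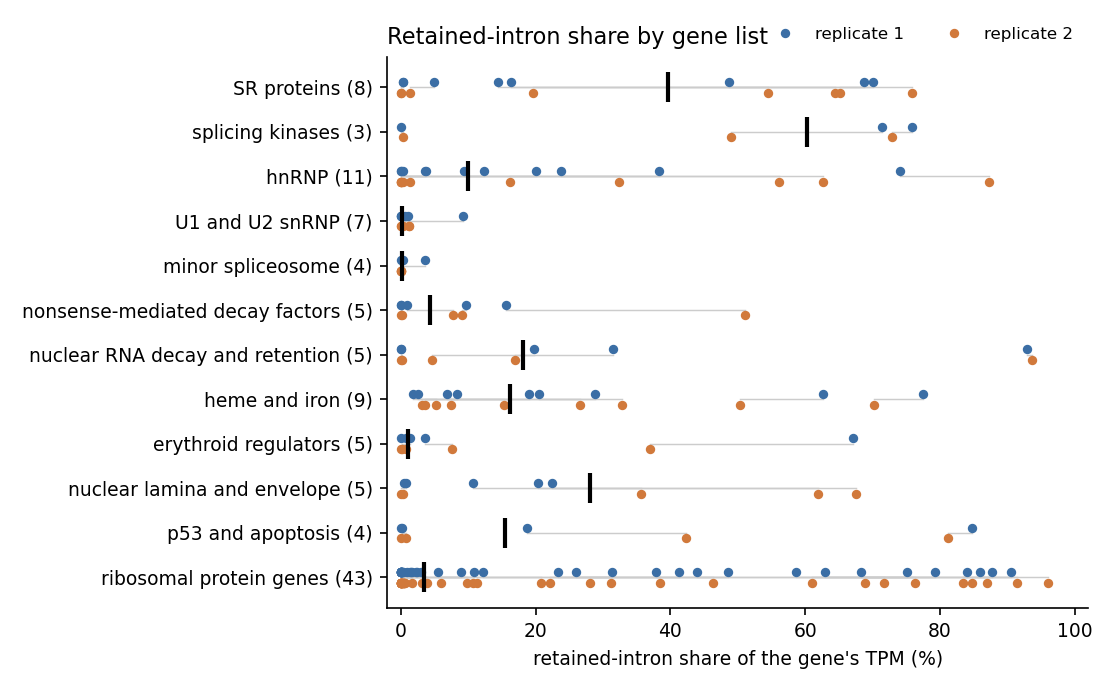
Retained-intron share of the gene's TPM in percent for genes with 100 or more counts in each library, by gene list, with the number of genes in brackets; blue points are replicate 1, orange points replicate 2, grey lines join a gene's values and black bars are the medians of the mean share. The SR protein bar stands at 39.6% and the U1 and U2 bar at 0.13%.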

How the data were processed

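Per the file headers and the readme, the authors mapped to mm10 with GENCODE M4 gene models. For the aligner and quantifier: not given in the sources used here. Deposited expected counts are estimated fragments per transcript. The deposited TPM and FPKM are levels per length, and the deposited percent is a transcript's share of its gene's TPM. The authors' posterior mean TPM, its interval bounds and the posterior SD of the count were treated as signal values; the headers state no interval level. Of 103639 Ensembl rows, 101510 matched M21 by identifier. The tables follow M4 and the structures M21: 428 retained-intron models differ in length and were left out of structural summaries, as were introns under 30 bases. Shares were summed by the tables' gene identifier. Members and lists were chosen with earlier results of these data known. Named genes were the 12 with the highest lowest share over the deposited and posterior shares, the 10 most abundant members, the 5 largest differences each way, up to 4 per list by mean share, 11 always named, and the neighbours of the 100-count limit; some genes that these rules name are left out here. Ribosomal protein genes were taken by symbol. Expected counts were rounded, scaled with TMM (edgeR 4.0.16, R 4.3.3; DESeq2 1.42.0 as an alternative), filtered at 20 counts and given a prior of 0.5. The ratio rule was tested on simulated data. With 1 group, no p-value was computed. Intervals cover counting error only. Python 3.11.15, numpy 2.4.6, pandas 2.3.3, scipy 1.17.1 and matplotlib 3.10.9 were used.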

Additional observations from a re-analysis of the deposited data

How the results depend on the processing

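The tables do not show where in a transcript the reads fall, nor how many reads match more than 1 transcript. The percent of TPM fell from 24.8% to 11.1% on expected counts and 10.8% without globin, ribosomal protein and histone genes. Members at the detection limit numbered 3396 at 0.1 TPM and 839 at 5 TPM, and 2354 to 2812 in either library alone. The median share was 7.615% with posterior shares, 3.39% on counts, 3.125% for members with 50 or more own bases, and 3.235% to 3.875% in either library alone. Genes at 50% or more numbered 272 on counts, 237 at 500 counts per gene, and 552 to 647 in either library alone. Genes differing by 25 points numbered 237 at 500 counts per gene (138 higher in replicate 2 and 99 in replicate 1); on expected counts those higher in replicate 1 fell from 190 to 96. At 100 counts per member, 510 were higher in replicate 2 and 432 in replicate 1. The median log2 ratio of members was 0.35 at 100 counts, -0.31 with total counts, -0.39 centred on TPM and -0.56 at 1 count, where it lay 0.22 below the median of all transcripts instead of above it. The cause was not tested, except that stricter count limits test fewer genes. The other alternatives of these results stayed within the spread between libraries or within 1.5 times the count. No paired analysis was possible because there was 1 group.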
